A study of Mus musculus with 2 samples.

Results

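Gene desert peaks are the sites of open chromatin that lie far from any known gene. They were taken from the 2 lists of ATAC-seq peaks, that of wild-type (WT) E14 mouse embryonic stem cells (ESCs) and that of E14 ESCs without Uhrf1 (Uhrf1 KO), as the autosomal peaks that lay outside every gene body of the GENCODE vM1 annotation of mouse build mm9 and whose centre was more than 50 kb from the nearest transcript start (TSS). Peaks in unsequenced stretches were left out, as were CpG-island-like peaks, whose central 200 bp held at least 55% GC with an observed/expected CpG ratio of at least 0.6. The rule left 6394 gene desert peaks in the WT list of 71914 and 7014 in the KO list of 61640, or 13408 of 133554 in all. Both lines were undifferentiated and were grown with serum and leukemia inhibitory factor on gelatin or feeder cells, and 1 library was made from each. How many clones stand behind the KO line is not given in the sources used here. With 1 library per genotype there was no replicate error and no test between the genotypes. All intervals below are 95% intervals that cover nothing but counting error, and they take no account of the dependence between neighbouring peaks.

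In ATAC-seq a transposase cuts and tags DNA where nucleosomes leave it open, and stretches with many tagged fragments are listed as peaks. Uhrf1 binds hemimethylated CpG behind the replication fork and brings in the maintenance DNA methyltransferase, and cells without it lose most CpG methylation. Open sites far from genes are mostly distal enhancers, insulator sites bound by CTCF, and repeats. CTCF is a zinc finger protein that anchors chromatin loops, and methylation of a CpG within its motif is known to hinder its binding at some sites. In ESCs many distal enhancers are bound by Oct4 and Sox2, often side by side on a composite motif.

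Every peak but 1 in the KO list had the same width, and all had the same score, so that no peak had a height. Of 40 regulators of the ESC state, 39 had a peak close to a TSS (at most 2 kb away) in WT and 35 in KO, with Pou5f1, Sox2 and Nanog in both. The same was not counted over all genes, and the KO list was the smaller, with 59084 autosomal peaks against 69291 in WT. Uhrf1 with 10 kb on either side held 6 WT and 5 KO peaks, which do not show whether the gene was cut. The first 3 Mb of chromosome 1 are unsequenced in mm9 but held 145 WT and 130 KO peaks. In the next 3 Mb no peak lay in unsequenced sequence, and there were 108 WT and 116 KO desert peaks. Positions there were treated as doubtful because they adjoin that stretch. Whether peaks there are misplaced was not tested.

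Peaks were called shared where the other list had a peak within 100 bp, and WT-only or KO-only otherwise. To show what such peaks look like in each class, the 2 peaks whose names end in the lowest number, as a fraction of the highest on the same chromosome, are printed, among those whose central 31 bp occur at 1 place in the genome. Capitals mark these 31 bp, which were used to count genomic copies, and all positions are on the plus strand of mm9.
Shared peak, chr5:7085951-7086051: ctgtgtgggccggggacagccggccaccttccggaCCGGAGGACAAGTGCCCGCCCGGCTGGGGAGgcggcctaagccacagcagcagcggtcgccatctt
Shared peak, chr3:6049655-6049755: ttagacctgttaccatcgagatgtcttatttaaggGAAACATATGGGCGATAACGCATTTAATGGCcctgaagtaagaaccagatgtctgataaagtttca
WT-only peak, chr9:93068266-93068366: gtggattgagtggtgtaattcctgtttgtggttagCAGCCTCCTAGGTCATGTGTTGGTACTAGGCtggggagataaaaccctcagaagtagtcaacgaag
WT-only peak, chr16:18694636-18694736: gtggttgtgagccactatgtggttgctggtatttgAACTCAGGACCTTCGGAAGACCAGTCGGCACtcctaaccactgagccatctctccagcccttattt
KO-only peak, chr7:95761354-95761454: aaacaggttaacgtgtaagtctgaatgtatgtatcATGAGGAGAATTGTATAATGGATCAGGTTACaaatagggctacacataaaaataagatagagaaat
KO-only peak, chr15:15385306-15385406: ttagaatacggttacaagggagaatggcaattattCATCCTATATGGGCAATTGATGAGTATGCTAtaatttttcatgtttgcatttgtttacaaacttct
The central 200 bp of the KO-only peaks held 32.5% and 33.5% GC with 1 CpG each. Those of the shared peaks held 65.0% GC with 12 CpGs and 39.5% GC with 3 CpGs. The WT-only peaks held 39.0% and 47.0% GC with 1 and 2 CpGs.

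Of the 3 classes of distal peaks compared, gene desert peaks alone had a KO/WT ratio whose interval lay above 1. The ratio of peak numbers was 1.10 (1.06 to 1.13) in deserts. It was 1.00 (0.974 to 1.03) for intergenic peaks 2 to 50 kb from a TSS, with 10911 WT and 10918 KO peaks, and 0.981 (0.953 to 1.01) for intronic peaks over 2 kb from a TSS, with 9688 and 9501. All other autosomal peaks together gave 0.828 (0.818 to 0.838). The 3 distal classes differ in GC content. At the GC makeup of the WT desert peaks, described below, nearer intergenic and intronic peaks would each give 1.11, so the excess was not particular to deserts. Desert peaks made up 9.23% (9.01 to 9.45) of the autosomal WT list and 11.9% (11.6 to 12.1) of the autosomal KO list.

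Of the WT desert peaks, 2331 had no KO partner, or 36.5% (35.3 to 37.6), against 32.2% of all autosomal WT peaks. Of the KO desert peaks, 3016 had no WT partner, or 43.0% (41.8 to 44.2), against 24.4% of all autosomal KO peaks. In KO this share was 3.90 percentage points (2.42 to 5.38) above that of intergenic peaks nearer to genes and 2.00 points (0.482 to 3.53) above that of intronic peaks. Within most bins of GC content, given below, the KO desert share was not the higher one. In WT the desert peaks had the lower share, with a difference of -1.69 points (-3.18 to -0.195) from the nearer intergenic peaks, at 38.1%, and of -4.87 points (-6.40 to -3.34) from intronic peaks, at 41.3%. Shared peaks lay close to their partner. The centres were a median of 7 bp apart, and 77.2% of the WT shared peaks had a KO centre within 25 bp.

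Desert made up 686 Mb, or 28.7%, of the sequenced autosomes, and it was sparsely filled. It held 9.32 WT peaks per Mb (9.09 to 9.55) and 10.2 KO peaks per Mb (9.99 to 10.5), against 16.8 per Mb in both lists for intergenic sequence 2 to 50 kb from a TSS. The density fell with distance in both lists and fell less in KO. At 50 to 100 kb there were 11.2 WT (10.8 to 11.7) and 11.6 KO peaks (11.2 to 12.1) per Mb. At 200 to 500 kb there were 7.65 WT (7.25 to 8.06) and 9.07 KO peaks (8.64 to 9.51) per Mb. The KO/WT ratio was thus 1.03 (0.979 to 1.09) at 50 to 100 kb, 1.11 (1.04 to 1.18) at 100 to 200 kb, 1.19 (1.10 to 1.27) at 200 to 500 kb and 1.18 (1.01 to 1.38) beyond 500 kb, where 301 WT and 356 KO peaks lay. The share of KO peaks without a WT partner was 40.4% (38.5 to 42.2) in the nearest bin and 45.1% (42.7 to 47.5) at 200 to 500 kb. In WT it showed no steady change with distance, with 37.2% (35.4 to 39.1), 38.2% (36.0 to 40.3), 32.9% (30.4 to 35.4) and 35.2% (29.8 to 40.9) from the nearest bin to the farthest.

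**Figure D1:**
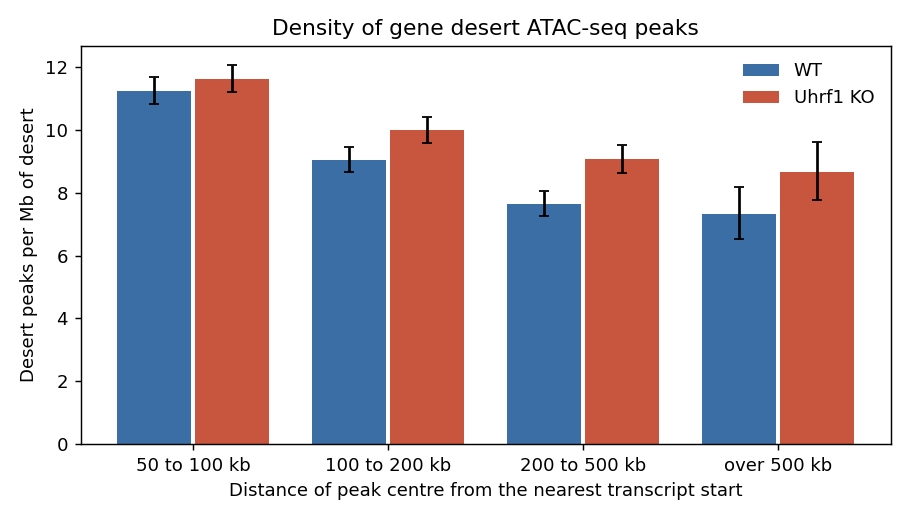
Desert peaks per Mb of desert sequence (y axis) by distance of the peak centre from the nearest transcript start (x axis), in WT (blue) and Uhrf1 KO (red), with 95% exact Poisson intervals. The bars fall from 11.2 to 7.32 per Mb in WT and from 11.6 to 8.66 per Mb in KO.

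The farthest shared and WT-only peaks lay in the stretch between Olfm4 and Pcdh17 on chromosome 14. A shared peak at chr14:81553354-81553454 was 1153295 bp from the nearest TSS, that of Olfm4, which encodes a secreted glycoprotein. Its central 31 bp occurred 1094330 times in the genome, so this position is uncertain. The farthest WT-only peak, chr14:81398939-81399039, lay in the same stretch, 998880 bp from a TSS, and its central 31 bp occurred at 1 place. The farthest KO-only peak, chr10:15811478-15811578, lay between Nmbr and Cited2, 1025082 bp from a TSS, and its central 31 bp had 10022 copies.

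Desert peaks were more numerous in KO on 18 of 19 autosomes. Outside chromosome 8 the KO/WT ratio ranged from 1.04 to 1.27, and on 5 autosomes, namely 3, 5, 11, 14 and 17, its interval lay above 1. The highest ratio was on chromosome 11, with 175 WT and 223 KO peaks. Over the same 18 autosomes the ratio of all other peaks ranged from 0.781 to 0.895. On every autosome the desert ratio was the higher. The other peaks are not a like class, since they hold peaks near genes and CpG-island-like peaks. Their median GC was 62.0% in WT shared peaks, against 49.5% in WT shared desert peaks. Nearer intergenic and intronic peaks were not split by chromosome.

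Chromosome 8 stood apart in both classes. It had 476 WT and 361 KO desert peaks, a ratio of 0.758 (0.660 to 0.871), and its other peaks gave 0.628 (0.598 to 0.659). Of its WT desert peaks 50.6% had no KO partner, against 29.3% to 39.4% on the other autosomes. In KO the density of its desert peaks was 8.60 per Mb, against 11.3 per Mb in WT. Desert and other peaks of this chromosome were thus both fewer in KO, and without it the desert ratio was 1.12 (1.09 to 1.16).

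**Figure D2:**
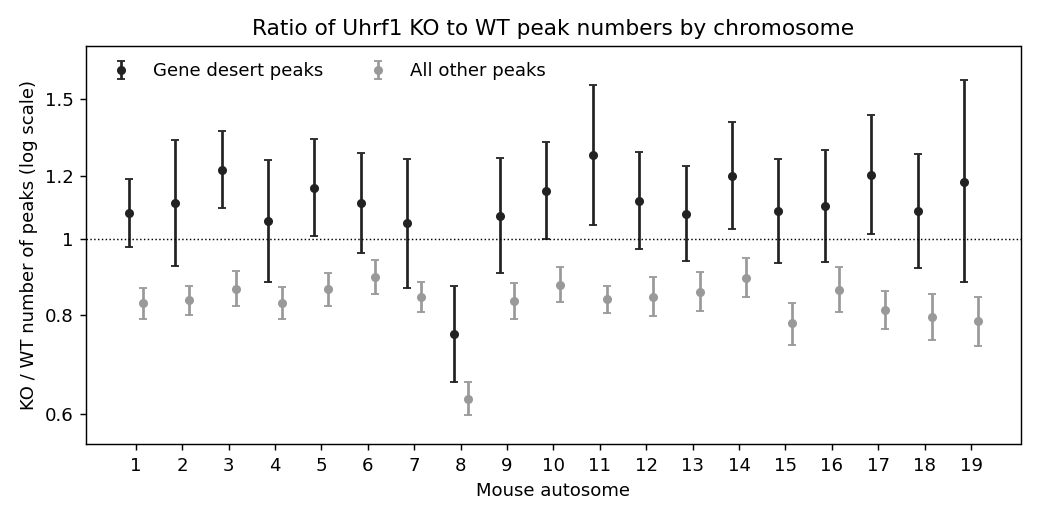
KO/WT ratio of peak numbers (y axis, log scale) for each autosome (x axis), for gene desert peaks (black) and all other peaks (grey), with 95% exact counting intervals. The desert ratio lies above 1 on every autosome but chromosome 8, where it is 0.758. The other peaks include those near genes and CpG-island-like peaks.

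KO-only desert peaks had less GC than the other classes. The median GC of the central 200 bp was 46.3% in KO-only peaks (interquartile range 41.0 to 50), 51.0% in WT-only peaks (47.0 to 55) and 49.5% in WT shared peaks (45.5 to 54.0). In flanks of the same length 1 kb to either side it was 40%, 41.5% and 40.5%. All 3 classes thus had more GC than their surroundings, and KO-only peaks stood out least. They also held fewer CpGs, the sites that DNA methyltransferases act on. KO-only peaks had a mean of 2.21 in 200 bp, WT-only peaks 3.40 and WT shared peaks 3.21, against 1.52, 1.67 and 1.61 in the flanks. No CpG at all was found in 21.9% of KO-only and 14.8% of WT-only peaks. The median observed/expected CpG ratio was 0.167 (0.0816 to 0.302) in KO-only and 0.214 (0.0897 to 0.381) in WT-only peaks, whose interquartile ranges overlap over most of their length. Since the rule left out CpG-island-like peaks, the upper end of these GC and CpG values is set by it.

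The KO/WT ratio of desert peak numbers fell from bin to bin with GC content. Under 40% GC there were 400 WT and 906 KO desert peaks, a ratio of 2.27 (2.01 to 2.55). From 45 to 50% GC it was 1.18 (1.10 to 1.25), from 50 to 55% it was 0.928 (0.868 to 0.992), and at 60% or more, with 577 WT and 340 KO peaks, it was 0.589 (0.514 to 0.675). Of KO desert peaks under 40% GC, 64.1% (60.9 to 67.3) had no WT partner, against 10.6% (7.53 to 14.4) at 60% or more. In WT these shares were 17.8% (14.1 to 21.9) and 42.6% (38.6 to 46.8). From 55% GC up, the bins lack the CpG-island-like peaks that the rule left out, 479 in WT and 293 in KO. The nearer intergenic and intronic peaks lack their CpG-island-like peaks as well.

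This gradient was not particular to deserts. The nearer intergenic peaks gave 2.18 (1.91 to 2.5) under 40% GC and 0.662 (0.608 to 0.721) at 60% or more, and in each bin their interval overlapped that of the desert peaks. Were the nearer intergenic peaks to have the GC makeup of the WT desert peaks, their KO/WT ratio would be 1.11 in place of 1.00, and that of the intronic peaks 1.11 in place of 0.981. These stand beside the desert value of 1.10. Under 40% GC the KO share without a partner was higher in deserts, at 64.1% against 60.7% in nearer intergenic and 58.8% in intronic peaks. From 45 to 50% GC it was 44.7% (42.5 to 46.8), against 45.7% and 49.1%. It was also below both from 40 to 45%, from 50 to 55% and at 60% or more. From 55 to 60% it lay between them. The part of GC content in the libraries' own depth was not tested, since the lists give no reads.

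**Figure D3:**
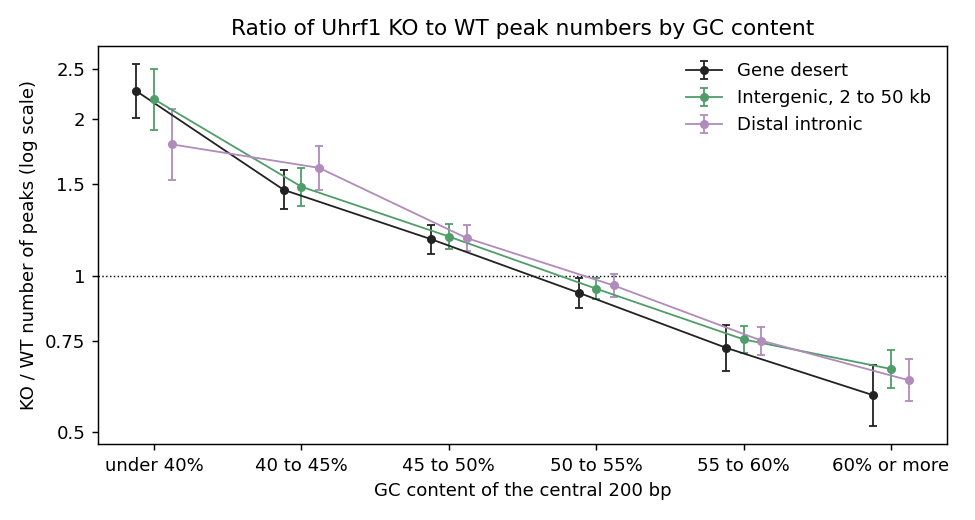
KO/WT ratio of peak numbers (y axis, log scale) by GC content of the central 200 bp (x axis), for gene desert peaks (black), intergenic peaks 2 to 50 kb from a TSS (green) and distal intronic peaks (purple), with 95% exact counting intervals. The ratios lie between 1.79 and 2.27 under 40% GC and between 0.589 and 0.662 at 60% or more.

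Repeated sequence was common in desert peaks. The central 31 bp occurred at more than 1 place in 22.5% (21.5 to 23.6) of WT and 27.8% (26.7 to 28.8) of KO desert peaks. By class, this share was 16.5% (15.0 to 18) in WT-only, 26.0% (24.7 to 27.4) in WT shared and 30.5% (28.8 to 32.1) in KO-only peaks. Peaks whose central 31 bp occurred at 1 place are called single-copy, though they may still lie in a repeat whose copies differ. The KO/WT ratio was 1.02 (0.983 to 1.06) for single-copy peaks, with 4953 WT and 5066 KO peaks, and 1.35 (1.26 to 1.45) for peaks with 2 or more copies, with 1441 and 1948. It was highest at 2 to 9 copies, where 833 WT and 1213 KO peaks gave 1.46 (1.33 to 1.59). Among these single-copy peaks the shares without a partner were 39.3% (37.9 to 40.7) in WT and 41.4% (40 to 42.8) in KO. Among peaks with 2 or more copies they were 26.6% (24.4 to 29.0) and 47.2% (44.9 to 49.4).

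Where a read fits several places equally well, the aligner lists 1 of them, so a peak of repeated sequence may stand for any of its copies. How the KO excess divides between single-copy and repeated peaks depended on the length searched. With the central 50 bp in place of 31, single-copy desert peaks numbered 5871 in WT and 6327 in KO, a ratio of 1.08 (1.04 to 1.12), and those with 2 or more copies 523 and 687, a ratio of 1.31 (1.17 to 1.47). A higher ratio for repeated sequence was not particular to deserts. By the central 31 bp, peaks with 2 or more copies gave 1.19 (1.11 to 1.27) among nearer intergenic and 1.27 (1.17 to 1.38) among intronic peaks. Single-copy peaks of these classes would give 1.07 and 1.06 at the GC makeup of the desert peaks, against 1.02 in deserts. Simple CA repeats were a small part. A run of at least 10 AC or CA units stood in 2.16% (1.67 to 2.74) of KO-only and 0.858% (0.525 to 1.32) of WT-only peaks, against 1.86% and 2.60% of their flanks.

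WT-only desert peaks held the motif of CTCF more often than KO-only peaks. A match on either strand of the central 200 bp stood in 112 of 2331 WT-only peaks, or 4.80% (3.97 to 5.75), and in 36 of 3016 KO-only peaks, or 1.19% (0.837 to 1.65), a difference of 3.61 percentage points (2.69 to 4.61). Shared peaks were between them, with 3.00% (2.5 to 3.57) in the WT and 3.28% (2.75 to 3.88) in the KO list. The flanks held the motif in 0.0429% and 0.0332% for WT-only and KO-only peaks. Over all autosomal peaks the share was 3.52% in WT and 2.64% in KO. In total 234 WT and 167 KO desert peaks held it, a KO/WT ratio of 0.714 (0.582 to 0.874), where all desert peaks gave 1.10. Neighbouring peaks were each counted, so the same match can stand in several peaks, and this ratio was not repeated with neighbours merged. Of the WT peaks with the motif 47.9% (41.3 to 54.5) had no KO partner, and of the KO peaks with it 21.6% (15.6 to 28.6) had no WT partner.

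The matches sat near the middle of the peaks, less closely in shared peaks. The median distance from motif to centre was 12 bp in WT-only and 9.5 bp in KO-only peaks, and 70.5% of the WT-only matches were within 20 bp of the centre. In shared peaks the median was 14 bp in the WT and 22 bp in the KO list, with 62.3% and 47.3% within 20 bp. Among single-copy peaks the difference between WT-only and KO-only peaks was as large, with shares of 5.44% and 1.72%, 3.73 points apart (2.60 to 4.92). Within GC bins the intervals were apart in 2 of 6. From 45 to 50% GC, 5.13% (3.53 to 7.16) of WT-only and 1.06% (0.509 to 1.94) of KO-only peaks held the motif, and from 50 to 55% it was 6.17% (4.56 to 8.15) and 0.995% (0.366 to 2.15). From 40 to 45% the values were 3.62% (1.8 to 6.56) and 2.36% (1.35 to 3.80), whose intervals overlap. They also overlap from 55 to 60%, with 4.88% (2.92 to 7.60) and 1.16% (0.140 to 4.11), and under 40%, with 1 match in each class. At 60% or more KO-only peaks had the higher value, 2.78% (0.0703 to 14.5) of 36 peaks against 2.03% (0.663 to 4.68) of WT-only peaks. The same held for all GC contents together nearer to genes, with 9.44% of WT-only and 3.26% of KO-only intergenic peaks 2 to 50 kb from a TSS, and 9.22% and 3.13% of intronic peaks.

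The peaks below hold a CTCF match, in capitals. They are the single-copy peaks of lowest relative name number with a match inside the peak, and all but the shared one were chosen after the values above were seen.
Shared, chr11:27653737-27653837, between Vrk2 and Gm6685: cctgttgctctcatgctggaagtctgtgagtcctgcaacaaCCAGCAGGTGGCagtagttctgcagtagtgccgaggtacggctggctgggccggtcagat
WT-only, chr10:86063739-86063839, between Gm6729 and Gm5174: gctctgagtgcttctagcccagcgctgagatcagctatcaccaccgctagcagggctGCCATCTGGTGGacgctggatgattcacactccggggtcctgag
WT-only, chr11:25335773-25335873, between Bcl11a and 5730522E02Rik: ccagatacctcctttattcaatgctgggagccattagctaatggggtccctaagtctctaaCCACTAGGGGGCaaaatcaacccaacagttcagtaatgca
WT-only, chr3:17513637-17513737, between Ythdf3 and Gm10742: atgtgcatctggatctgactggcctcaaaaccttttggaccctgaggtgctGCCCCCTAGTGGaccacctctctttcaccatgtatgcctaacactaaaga
KO-only, chr3:119240950-119241050, between Dpyd and Ptbp2: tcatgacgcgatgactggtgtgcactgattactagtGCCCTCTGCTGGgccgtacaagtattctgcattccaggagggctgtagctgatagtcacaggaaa
The WT-only peaks held 6, 1 and 0 CpGs in their central 200 bp, the KO-only peak 4 and the shared peak 5.

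The octamer ATGCAAAT, to which Oct4 and other POU factors bind, was found in 4.06% (3.48 to 4.71) of WT shared, 2.62% (2.01 to 3.35) of WT-only and 3.42% (2.80 to 4.13) of KO-only desert peaks, against 2.41%, 2.17% and 2.32% of their flanks and 1.74% of all autosomal peaks. Shared and KO-only peaks thus held it more often than their flanks, while for WT-only peaks the intervals of peak and flank overlap. Octamer matches were spread over the 200 bp searched and beyond the listed peak, a median of 50 bp from the centre in WT shared peaks, and 2.12% of these held a match within the peak itself. The longer Oct4-Sox2 composite, searched as a degenerate word, was rare, with 10 of 6394 WT and 8 of 7014 KO desert peaks.

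**Figure D4:**
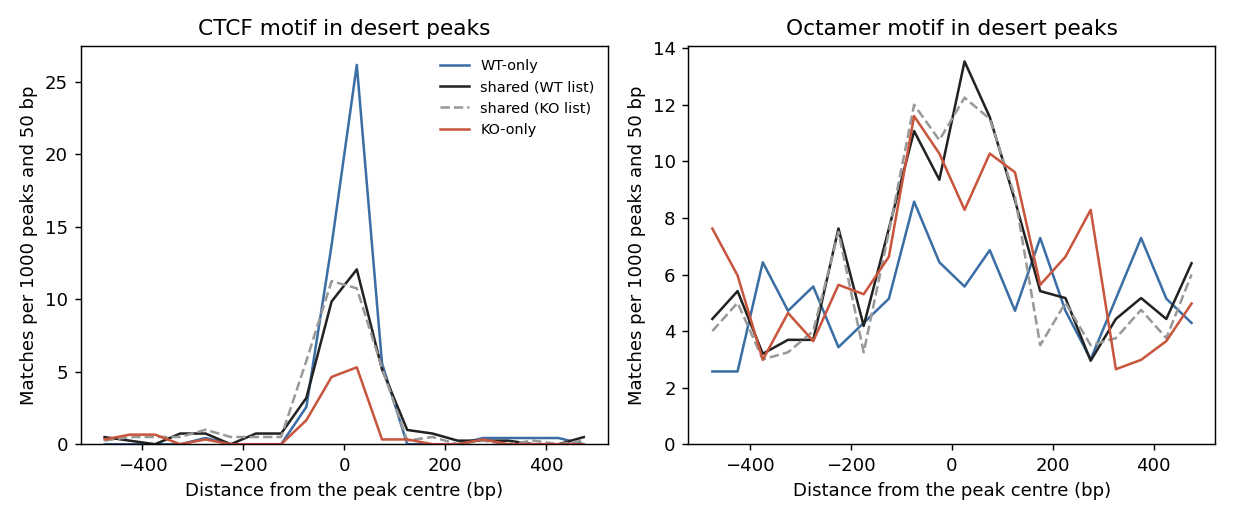
Matches per 1000 peaks and 50 bp (y axis) to the CTCF motif (left) and the octamer (right) by distance from the centre of the desert peak in bp (x axis), for WT-only (blue), shared (black, WT list; grey dashed, KO list) and KO-only peaks (red). CTCF matches rise at the centre, most in WT-only peaks (26.2) and least in KO-only peaks (5.31), while octamer matches of shared peaks spread over about 100 bp to either side.

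The 3 single-copy shared peaks of lowest relative name number with the composite follow, with the composite in capitals.
Chr4:28227443-28227543, between Bhmt-ps1 and Epha7: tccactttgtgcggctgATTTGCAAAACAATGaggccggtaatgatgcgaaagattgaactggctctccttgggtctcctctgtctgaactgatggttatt
Chr7:72599236-72599336, between Tjp1 and Tarsl2: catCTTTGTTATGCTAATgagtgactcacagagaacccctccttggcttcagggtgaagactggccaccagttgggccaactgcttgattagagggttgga
Chr15:71989081-71989181, between Col22a1 and Kcnk9: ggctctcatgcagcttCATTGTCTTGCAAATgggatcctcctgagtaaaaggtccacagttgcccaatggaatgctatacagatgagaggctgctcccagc

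Of the other 9 motifs, those of Klf factors and Zic were more frequent in peaks than in flanks in every class, with intervals that did not overlap. The Klf motif GGGNGTGG was found in 12.5% (11.2 to 13.9) of WT-only and 9.42% (8.40 to 10.5) of KO-only peaks, against 4.42% and 4.41% of flanks. The Zic motif CAGCAGG was found in 14.0% and 6.60%, against 3.05% and 2.74%. It can lie within a CTCF match, and without such matches it stood in 13.2% (11.9 to 14.7) of WT-only and 6.60% (5.74 to 7.54) of KO-only peaks. The E-box CACGTG was found in 3.09% (2.42 to 3.87) and 2.72% (2.17 to 3.36), against 2.17% and 1.59%, and in WT-only peaks its interval overlaps that of the flanks.

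The GATA motif AGATAA was the one with fewer matches in peaks than in flanks in all classes. It was found in 6.91% (5.91 to 8.01) of WT-only, 7.11% of WT shared and 12.8% (11.6 to 14.0) of KO-only peaks, against 12.9%, 13.1% and 15.1% of flanks. NF-Y (CCAAT) was found in 28.1% (26.3 to 30.0) of WT-only and 35.6% (33.9 to 37.4) of KO-only peaks, close to the 27.5% and 34.3% of their flanks. For Sox (AACAATG) the shares were 3.43% and 4.94%, a difference of -1.51 points (-2.57 to -0.419). For AP-1 (TGANTCA), Tead (GGAATGT) and Esrrb (TCAAGGTCA), the interval of the difference between WT-only and KO-only peaks included 0. Among single-copy peaks that of AP-1 did not, at -2.18 points (-3.78 to -0.571). The differences of GATA, NF-Y, Sox, Klf and Zic had the same sign in nearer intergenic and intronic peaks, with intervals without 0. For GATA they were -6.13 and -6.74 points there, against -5.89 in deserts. For Zic they were 4.31 and 4.49 points, against 7.43 in deserts. These short motifs differ in GC content, as did the classes, and the part of GC in these differences was not tested.

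The number at the end of a peak name, whose meaning is not stated, went with whether a peak was shared. Each autosomal list was cut into 5 equal bins by this number. In the lowest bin 1.64% (0.877 to 2.79) of 792 WT and 6.21% (4.9 to 7.74) of 1176 KO desert peaks had no partner, and in the highest 60.5% (58.2 to 62.8) of 1782 and 67.4% (65.2 to 69.6) of 1722. In every bin KO desert peaks lacked a partner more often than the rest of the autosomal KO list, which also holds peaks near genes. In the middle bin 42.3% (39.7 to 44.9) of KO desert peaks had no partner, against 20.5% of the rest. In WT the values were 31.8% (29.3 to 34.4) and 33.3%. Over all bins the KO share was 43.0% in desert, 39.1% in nearer intergenic and 41.0% in intronic peaks. A high KO share was thus not particular to deserts. The nearer intergenic and intronic peaks were not split by bin. Multicopy peaks were most frequent in the lowest bin, with 34.1% in WT and 41.1% in KO, against 20% and 21.8% in the highest.

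Desert peaks were spread over many stretches. Cut at the bodies of protein-coding genes, the genome had 2743 intergenic stretches with some desert, and 1764 of them held a desert peak. KO peaks were more numerous in 755 stretches, WT peaks in 595, and 414 had as many of both. The 8 stretches with most peaks held 4.60% of all desert peaks on 2.68% of the desert. Within 1 kb of another desert peak of the same list lay 25.5% of WT and 19.4% of KO desert peaks, and within 200 bp 18.1% and 13.1%. Merging neighbours within 100 bp left 5768 WT and 6513 KO regions.

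The 2 fullest stretches lay in the first 6 Mb of chromosome 1, where positions were treated as doubtful. Between Atp6v1h, a subunit of the proton pump of lysosomes, and Oprk1, the kappa opioid receptor, at chr1:5152631-5578573, 376 kb of desert held 50 WT and 54 KO peaks. Between Xkr4 and Rp1, at chr1:3661580-4334223, 481 kb held 41 and 43. From 3 to 6 Mb of this chromosome the desert peaks had a median GC of 40% in WT and 40.5% in KO, against 38.3% and 39.0% in their flanks, and 13.9% and 24.1% had no partner. With the first 6 Mb of chromosome 1 left out, the KO/WT ratio of all desert peaks was 1.10, while 36.8% of WT and 43.3% of KO desert peaks had no partner.

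The other 6 of the fullest stretches were longer. They were Nxph1 to Ndufa4 on chromosome 6 (40 WT and 42 KO peaks in 2408 kb of desert), Hace1 to Grik2 on chromosome 10 (38 and 42), Cntnap5b to Cdh20 on chromosome 1 (38 and 34), Pcdh7 to G6pd2 on chromosome 5 (27 and 43), Gm8910 to Ralyl on chromosome 3 (31 and 36) and Cdh6 to Cdh9 on chromosome 15 (25 and 33). Nxph1 encodes a ligand of neurexins, Grik2 a kainate receptor subunit, and Cdh and Pcdh genes encode cadherins and protocadherins, which are adhesion molecules. Each number carries a counting interval such as 17.8 to 39.3 for 27 peaks and 31.1 to 57.9 for 43. Of the stretches with at least 10 desert peaks, the densest were Igfbp5 to Tnp1 on chromosome 1 (6 WT and 6 KO peaks in 41.0 kb of desert), Atp6v1h to Oprk1, B230307C23Rik to the end of chromosome 16 (6 and 4), Pde4d to Rab3c on chromosome 13 (7 and 5) and Sept5 to Cldn5 on chromosome 16 (5 and 6).

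The largest surpluses of KO peaks were in 3 stretches. Gm10110 to Pcdh9 at chr14:90298274-93414730 held 19 WT peaks (11.4 to 29.7) and 35 KO peaks (24.4 to 48.7), of which 20 were KO-only. Pcdh7 to G6pd2 at chr5:58520591-62200081 held 27 and 43, with 19 KO-only. Pabpc4l to 1700018B24Rik at chr3:46251864-48409653 held 13 (6.92 to 22.2) and 26 (17.0 to 38.1), with 16 KO-only. In each pair the intervals overlap. The largest surpluses of WT peaks were 2 stretches of chromosome 8, 4930555F03Rik to Aga (26 WT and 18 KO peaks) and Spock3 to Tll1 (16 and 8), and Sall3 to Galr1 on chromosome 18 (20 and 13). These stretches were chosen for the difference, which is therefore a description.

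**Figure D5:**
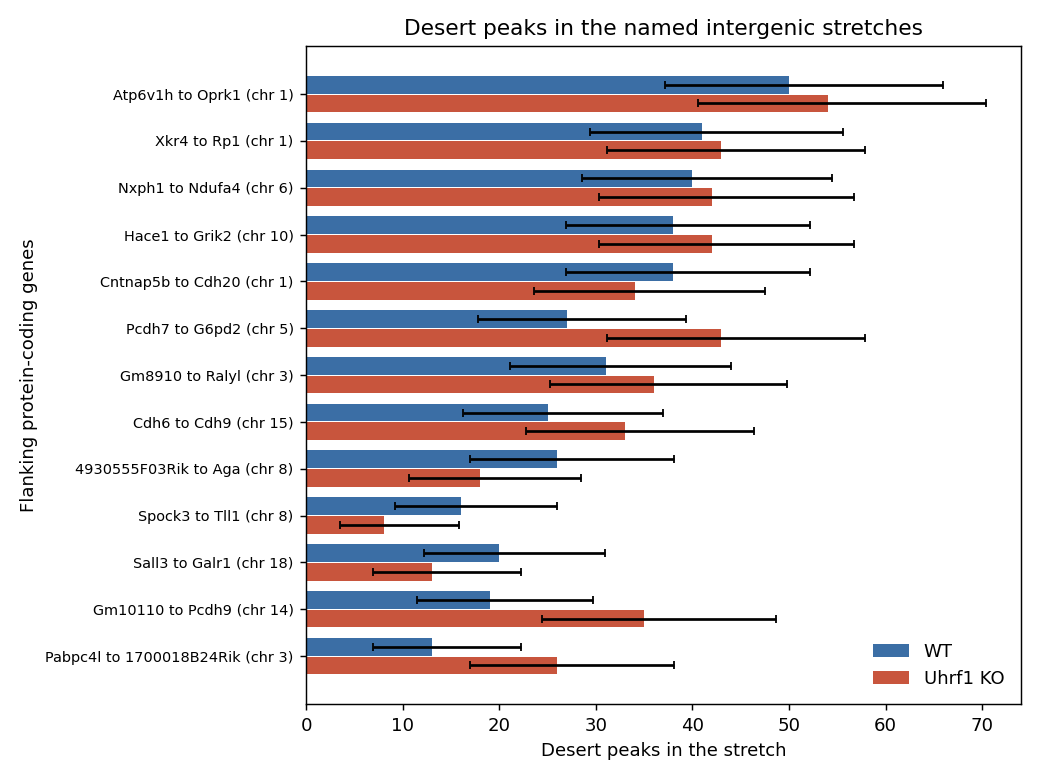
Number of desert peaks (x axis) in WT (blue) and Uhrf1 KO (red) in the 8 stretches with most peaks and the 3 with the largest surplus in each direction, named by their flanking protein-coding genes (y axis), with 95% exact Poisson intervals. WT and KO intervals overlap in every stretch shown, with 19 WT and 35 KO peaks between Gm10110 and Pcdh9.

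Stretches beside genes of cell adhesion and the neuronal surface, 128 in number with 111 Mb of desert, held 7.96 WT (7.45 to 8.50) and 9.25 KO (8.69 to 9.83) peaks per Mb, a ratio of 1.16 (1.06 to 1.27), against 1.10 over all stretches. Of their KO peaks 46.4% (43.4 to 49.6) had no WT partner, against 43.0% (41.8 to 44.2) over all stretches. Of their WT peaks 36.0% (32.8 to 39.2) had no KO partner, against 36.5%. Stretches beside developmental transcription factors, 134 in number, held 10.1 WT (9.08 to 11.1) and 10.5 KO (9.53 to 11.6) peaks per Mb, a ratio of 1.05 (0.908 to 1.21). Stretches beside olfactory and vomeronasal receptor genes, which lie in large repeated clusters, had little desert (3.92 Mb) with 68 WT and 92 KO peaks, a ratio of 1.35 (0.978 to 1.88). The intervals of these ratios all include the value of all stretches, 1.10.

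Beside regulators of the ESC state desert peaks were about as numerous in both genotypes. Of the 40 regulators, 21 flanked a stretch with desert and 17 one with a desert peak. The 28 stretches with desert held 80 WT and 82 KO peaks, a ratio of 1.03 (0.744 to 1.41), and 33.8% (23.6 to 45.2) and 35.4% (25.1 to 46.7) of them had no partner. These intervals include the values of all stretches, a ratio of 1.10 and shares of 36.5% in WT and 43.0% in KO. The ESC regulator stretches thus cannot be told apart from deserts as a whole. With peak numbers this small, single stretches cannot be told apart by genotype. Neighbouring peaks were each counted, so the numbers can exceed those of separate places.

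Downstream of Sox2, the partner of Oct4, the stretch to Atp11b (chr3:34551384-35653055) held 8 WT and 13 KO peaks. Some of the KO peaks overlap one another, so these 13 mark fewer places. Mouse ESCs are known to use a distal enhancer cluster downstream of Sox2. Shared peaks lay 95225, 106553, 111345, 145568 and 434594 bp from the TSS of Sox2 by their WT centres, and a WT-only peak lay at 107736 bp. KO-only peaks lay at 333750 and 378013 bp. Nearer to Atp11b were 2 further KO-only peaks, 421064 and 348423 bp from its TSS, a WT-only peak at 124057 bp and a shared peak at 123415 bp. The WT-only peak, which holds an Esrrb match in its central 200 bp, is shown with its central 31 bp in capitals and was chosen after its values were seen.
WT-only, chr3:34656744-34656844: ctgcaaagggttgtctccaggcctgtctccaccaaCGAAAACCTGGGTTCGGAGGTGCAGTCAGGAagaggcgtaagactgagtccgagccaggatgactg

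The stretches on either side of Myc, a growth-promoting transcription factor, held 6 WT and 8 KO peaks on the side of A1bg. On the side of Gsdmc there were 8 and 12, and 7 of the KO peaks were KO-only. Of these, chr15:62790570-62790670 and chr15:62790675-62790775 lie side by side. Klf5 to Klf12, between 2 Krüppel-like factor genes, held 4 WT and 5 KO peaks, all shared. Beside Klf4 there were 3 WT and 6 KO peaks, of which 4 were KO-only. Of these, chr4:56547174-56547274 and chr4:56547224-56547324 overlap. Beside Jarid2, a subunit of Polycomb repressive complex 2, there were 6 and 4, and beside Tet2, an enzyme that oxidises 5-methylcytosine, 7 and 6. Tcfcp2l1 to Gli2 held 2 WT and 2 KO peaks, all shared and with a CTCF match. The 2 peaks of each list overlap one another and so mark a single place. Tcl1 to Bdkrb2 held 2 WT-only peaks with a CTCF match, 50 bp apart, and 2 KO peaks.

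The Tcfap2c to Bmp7 stretch on chromosome 2 held 5 WT peaks and 1 KO peak, with 4 WT-only. Of these, 2 lay 55867 and 61953 bp from the TSS of Tcfap2c, which encodes the transcription factor AP-2 gamma. The other WT-only peaks, chr2:172498630-172498730 and chr2:172498771-172498871, lie close together. Fbxo15 to Neto1, on chromosome 18, held 16 and 14. The other stretches held few peaks. There were 3 WT and 1 KO peaks beside Nr5a2, 4 and 3 beside Sall1, 2 and 1 between Med13l and Tbx3, 1 and 0 between Tbx3 and Tbx5, with a CTCF match, 1 and 2 beside Spry4, 1 and 1 beside Prdm14, 0 and 1 beside Otx2, and 1 and 0 beside Zfp42, again with a CTCF match.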

How the data were processed

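ATAC-seq of 1 WT and 1 Uhrf1 KO library of E14 ESCs was used. The authors mapped reads to mm9 with Bowtie2 in local mode, with 1 alignment reported per read, and kept fragments under 150 bp; per the labels, Bowtie2 2.1.0 and HOMER 4.9.1 were used. Peak caller, threshold and any shift of cut sites are not given in the sources used here. The deposited files hold peak positions and a deposited score that is 1 for every peak, so the depth behind a peak is unknown.

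Peaks were annotated with GENCODE vM1 and the NCBIM37 genome, which is mm9. Analyses used Python 3.11.15, numpy 2.4.6, pandas 2.3.3, scipy 1.17.1, pysam 0.24.0, numba 0.67.0 and matplotlib 3.10.9. Shares carry Clopper-Pearson, counts Poisson, ratios exact binomial and differences of shares Newcombe intervals at 95%. The routines were tested on simulated data, with 0 wrong calls for partners in 20000 regions, for copies in 200 and for planted motifs in 1200. CTCF and the Oct4-Sox2 composite were searched as degenerate consensus words, both strands. No columns of other samples were present.

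The members and gene lists were chosen with earlier results of these data known. Stretches named are the 8 with most peaks, the 5 densest with at least 10, the 3 with the largest surplus in each direction and all beside an ESC regulator; the farthest peak of each class is named. Alternatives were other overlap rules, distances, gene sets, windows, merging, lower-number lists and single-copy peaks.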

Additional observations from a re-analysis of the deposited data

How the results depend on the processing

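The KO/WT ratio of desert peak numbers stayed above 1 under all alternatives run. It was 1.22 in the lower-number lists (the 50% of peaks whose names end in the lower numbers), 1.14 over 100 kb from a TSS and 1.02 in single-copy peaks by the central 31 bp, where its interval includes 1. With CpG-island-like peaks kept, the ratio was 1.06 (1.03 to 1.10). As the meaning of the number in the peak names is not stated, it is unknown whether the lower-number lists hold stronger peaks. By the central 50 bp, a setting added after seeing the data, single-copy peaks gave 1.08 (1.04 to 1.12), with 37.5% of WT and 42.6% of KO peaks without a partner. The shares without a partner in WT and KO were 38.9% and 44.9% where an overlap of 1 bp was asked for, 44.3% and 49.5% where it was 50% of both regions, and 33.4% and 40.6% with a gap of up to 1 kb. They were 31.1% and 44.8% in the lower-number lists, 13.5% and 21.2% for lower-number lists against the whole other list, and 39.3% and 41.4% in single-copy peaks. In KO the share was also 44.6% with neighbours merged, 44.7% over 100 kb and 41.7% with CpG-island-like peaks kept. The KO share was the higher in each case. WT and KO densities per Mb were 8.30 and 9.49 over 100 kb, 8.41 and 9.49 with neighbours merged, and 3.76 and 4.59 in the lower-number lists, which hold fewer peaks by construction.

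The CTCF share was 2.07% (WT shared), 3.82% (WT-only) and 1.93% (KO shared) within the peak itself, 4.06%, 4.38% and 1.72% for single-copy WT shared, KO shared and KO-only peaks, and 6.90% (WT-only), 1.93% (KO shared) and 0.60% (KO-only) in the lower-number lists, a setting chosen after seeing the data, as was leaving out the first 6 Mb of chromosome 1. It was higher in WT-only than in KO-only peaks throughout. With the central 50 bp in place of 31, multicopy shares fell to 9.70% (WT shared), 5.53% (WT-only), 9.20% (KO shared) and 10.6% (KO-only). In the lower-number lists they were 30.9% in KO shared and 39.7% in KO-only peaks. The causes of these shifts were not tested. No paired analysis was possible because there was only 1 library on each side. Depth per peak is unknown and limits every value.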
